A study of Ctenopharyngodon idella with 6 samples.

Results

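A list of 11 microRNA (miRNA) families that mark neurons or the myelin-forming glia of the vertebrate brain was followed in the plasma exosomes of grass carp (Ctenopharyngodon idella). Members were all rows of the known miRNA table whose name carried the family number miR-9, miR-124, miR-128, miR-129, miR-132, miR-137, miR-138, miR-153, miR-212, miR-219 or miR-338, whatever the species, letter or arm in the name. The rule took 7.25% of the 2925 entries: 36 of miR-9, 22 of miR-124, 7 of miR-128, 17 of miR-129, 16 of miR-132, 20 of miR-137, 24 of miR-138, 22 of miR-153, 15 of miR-212, 17 of miR-219 and 16 of miR-338. They carried 54 species prefixes, because reads were named after the miRNAs of many species, and many names had identical values in all libraries, so that the members held 66 distinct sets of values.

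Small RNA was sequenced from 3 pools of plasma exosomes of large fish (L1, L2 and L3, 2 fish in each pool) and 3 pools of small fish (S1, S2 and S3, 5 fish in each pool). All were grass carp aged 10 months, kept together in a densely stocked pond, with no other treatment and no genetic change. The series asks what the exosomes of fish that had grown apart in size carry. Pool size went with fish size throughout, so the effects of growth and of the number of fish in a pool cannot be told apart. Values were in CPM, counts scaled to a common total of all known and newly predicted miRNA counts in a library, and whole counts could be read back from them. Library totals ran from 5272418 counts (L1) to 11524535 counts (S2), and 3 counts, taken as the limit that a value of 0 allows, were worth 0.569 CPM in L1 and 0.260 CPM in S2. Intervals and limits of this kind cover counting error only.

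A miRNA guides a silencing complex to messenger RNAs through its seed, the bases 2 to 8 from its 5′ end, and each hairpin precursor can give a 5p and a 3p arm. In vertebrates, miR-124 and miR-9 are hallmarks of neurons and neural progenitors, miR-132 and miR-212 come from one precursor transcript that responds to neuronal activity, and miR-128, miR-129, miR-137, miR-138 and miR-153 are enriched in brain. miR-219 and miR-338 are known for driving oligodendrocyte precursors to form myelin. miR-128 and miR-338 are also made outside the brain, and exosomes in plasma come from many tissues, so a level in plasma does not name a source.

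The leading mature sequences of most families are shown first, with the second arm of miR-128 and miR-9 and the known 5p form of miR-219, because the results below turn on which form of each miRNA was found. They are written 5′ to 3′ as DNA, as deposited, with the seed in capitals. The prefixes name the species whose miRNA gave the entry its name (dre zebrafish, aca green anole lizard, cgr Chinese hamster). The table gave no genome position for these entries.
dre-miR-338-3p: tCCAGCATcagtgattttgttgc
dre-miR-128-3p: tCACAGTGaaccggtctctttt
dre-miR-128-5p: cGGGGCCGtggcactgtatgaga
dre-miR-137-3p: tTATTGCTtaagaatacgcgta
aca-miR-9-5p: tCTTTGGTtatctagctgta
dre-miR-9-7-3p: tAAAGCTAgagaaccgaaagta
dre-miR-129-5p: cTTTTTGCggtctgggcttgct
dre-miR-153c-3p: tTGCATAGtcacaaaaatgatc
aca-miR-212-5p: aCCTTGGCtctagactgcttac
cgr-miR-138: aGCTGGTGttgtgaatcaggc
dre-miR-219-5p: tGATTGTCcaaacgcaattctt
No seed was common to the leading entries of 2 of these families. miR-132-3p and miR-212-3p shared the seed AACAGTC, and the seed of miR-129-5p, TTTTTGC, was also that of miR-722, a family outside the list.

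Levels fell into 2 tiers. dre-miR-338-3p averaged 392 ± 217 CPM in large fish and 964 ± 149 CPM in small fish (SD, n = 3 each), and dre-miR-128-3p averaged 579 ± 9.55 CPM in large fish and 473 ± 61.4 CPM in small fish (SD, n = 3 each). The next family, miR-137, averaged 13.8 CPM over the 6 libraries, 38.2 times below miR-128, and was below miR-128 in 6 of 6 libraries. miR-338 and miR-128 were the families ranked 28 and 31 of 438 by the mean of their leading entry, and the other 9 ranked between 103 and 222. Of the summed CPM of the 11 leading entries, miR-128 and miR-338 made up 94.1% to 98.2% in large fish libraries and 94.0% to 96.6% in small fish libraries. Below them the order was miR-137, miR-9, miR-132, miR-129, miR-153, miR-124, miR-212, miR-138 and miR-219. Neighbours in that order overlapped in most cases. miR-137 stood above miR-9 in 5 of 6 libraries, but miR-9 stood above miR-132 in 1 of 6, and miR-129 above miR-153 in 2 of 6. The 12 entries that reached 100 CPM in any library were the 3p forms of miR-338 and miR-128 and dre-miR-128-5p.

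**Figure D1:**
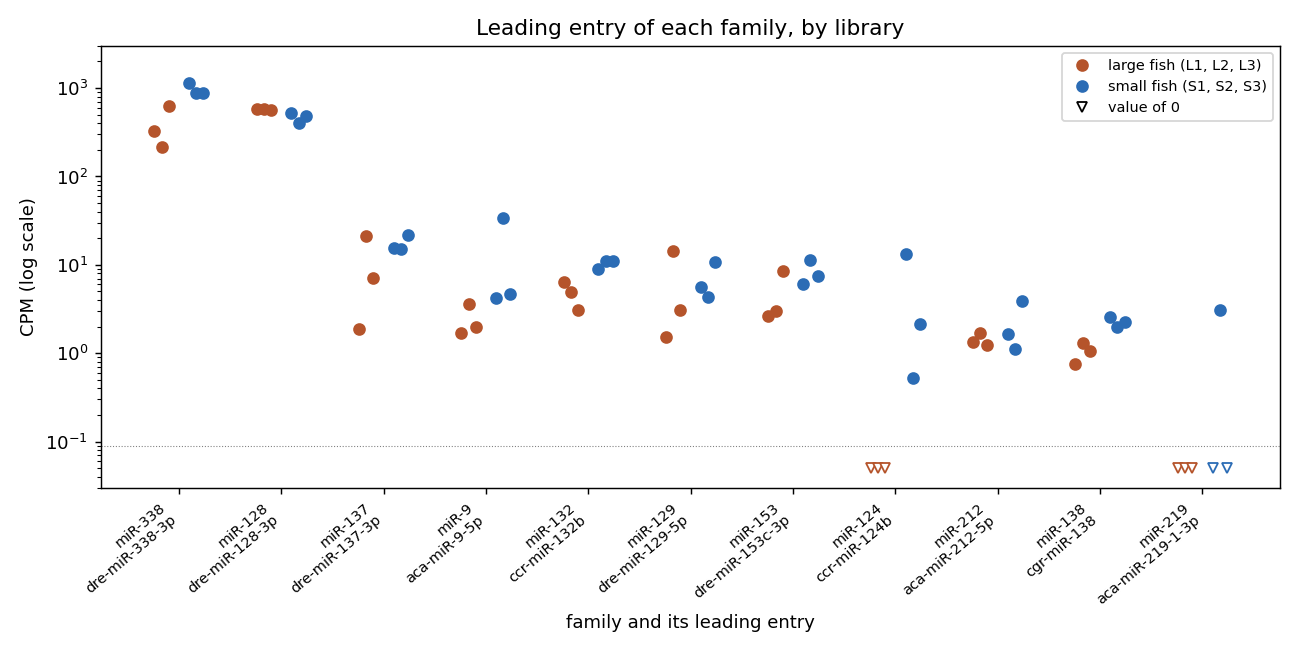
CPM (log scale) of the entry with the highest mean in each of the 11 families, with 1 point for each library, large fish left of small fish in each family. Open triangles under the dotted line mark values of 0, which are not on the scale. miR-338 and miR-128 lie between 215 and 1136 CPM, and all points of the other families lie at or below 34.2 CPM.

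miR-338-3p, the arm linked to myelination, was the one form of the 11 families that passed the test between fish of different size. dre-miR-338-3p stood at 325 CPM in L1, 215 CPM in L2 and 634 CPM in L3, against 1136 CPM in S1, 886 CPM in S2 and 870 CPM in S3. All 3 large fish libraries lay below all 3 small fish libraries, and L3 was nearest to the small fish. The difference, large minus small, was -1.43 on the log2(CPM + 1) scale (SE 0.39) with an adjusted p of 0.0474 by limma over 1807 entries (Benjamini-Hochberg). With 1 entry for each family, limma over 149 families gave the same difference with a 95% interval of -2.40 to -0.47 and an adjusted p of 0.04996, on the edge of the threshold of 0.05. The call therefore depended on single libraries in the fit over families. By limma the adjusted p was 0.130 without L1, 0.0885 without L2, 0.147 without S1, 0.0866 without S2 and 0.114 without S3, and 0.0074 without L3. The sign stayed negative under all 19 alternatives run, from -1.85 to -0.93, and 5 of them kept the call. The 6 entries that passed were all miR-338-3p forms with 3 sets of values, whose sequences differ only in their last bases. Their counts were nearly the same: dre-miR-338-3p had 1715 counts in L1 and mmu-miR-338-3p (mmu, mouse) 1711, and in S1, where the gap was widest, they had 7590 and 7569.

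The opposite arm did not follow the 3p arm. ssa-miR-338a-5p (ssa, Atlantic salmon) had 24.8 CPM in L1, 0.783 CPM in L2 and 7.21 CPM in L3, against 17.1 CPM in S1, 4.51 CPM in S2 and 6.18 CPM in S3. The groups overlapped, and by limma the difference was -0.31 (SE 0.94, adjusted p = 0.857). Whether the arms differed in their response was not tested.

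miR-128-3p, a brain-enriched miRNA that is also made in other tissues, was the steadiest member. It stood at 587 CPM in L1, 581 CPM in L2 and 568 CPM in L3, against 526 CPM in S1, 406 CPM in S2 and 488.2 CPM in S3. No large fish value was as low as any small fish value, but the difference was small: 0.30 on the log2 scale, with a 95% interval of -0.15 to 0.74 and an adjusted p of 0.299 by limma over families. DESeq2 on the recovered counts scaled the libraries otherwise and gave 0.49 with an adjusted p of 0.0095 over families. That is under the fold threshold of 1.5 for families. Over entries DESeq2 called the 5 entries of miR-128-3p, which hold identical values, higher in large fish (adjusted p = 0.0154). How many of all entries DESeq2 called was not counted. The 5p arm was lower: dre-miR-128-5p had 84.2 CPM in L1, 71.8 CPM in L2 and 113 CPM in L3, against 98.0 CPM in S1, 46.4 CPM in S2 and 74.2 CPM in S3, with overlapping groups. The 3p arm outnumbered the 5p arm 5.01 to 8.09 times in large fish libraries and 5.37 to 8.74 times in small fish libraries. A salmon form of that arm, ssa-miR-128-2-5p, which differs from dre-miR-128-5p by T9G and A18C (positions from the 5′ end, the zebrafish base first), was lower still, at 8.35 to 17.1 CPM in large fish and 2.95 to 11.4 CPM in small fish.

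**Figure D2:**
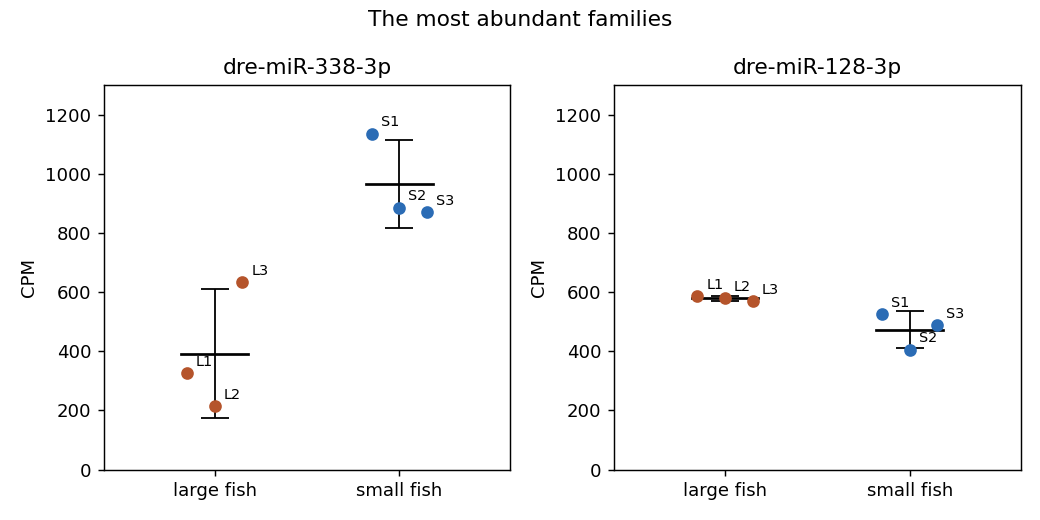
CPM of dre-miR-338-3p (left panel) and dre-miR-128-3p (right panel) in each library, on one linear scale from 0. Points are libraries, horizontal bars are group means and whiskers are 1 SD (n = 3). For miR-338-3p the large fish points, 215 to 634 CPM, lie below the small fish points, 870 to 1136 CPM, and for miR-128-3p the large fish points, 568 to 587 CPM, lie just above the small fish points, 406 to 526 CPM.

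Among the miRNAs of the lower tier, miR-9 had 1 library that stood far from the rest. aca-miR-9-5p, the arm that in mammals represses the REST transcription factor, had 1.71 CPM in L1, 3.65 CPM in L2 and 1.99 CPM in L3, against 4.19 CPM in S1, 34.2 CPM in S2 and 4.70 CPM in S3. S2 was 7.27 times the next small fish library, while L1 to L3, S1 and S3 lay within 1.71 to 4.70 CPM. The 3p arm had the same high library: dre-miR-9-7-3p stood at 3.41 CPM in L1, 3.52 CPM in L2 and 1.53 CPM in L3, against 4.49, 17.5 and 6.85 CPM in S1, S2 and S3. Its S2 value was 2.56 times the next. All large fish libraries lay below all small fish libraries for both arms. By limma the differences were -1.60 (95% interval -3.44 to 0.25, adjusted p = 0.193 over families) for aca-miR-9-5p and -1.33 (SE 0.49, adjusted p = 0.106 over entries) for dre-miR-9-7-3p, and neither passed. Without S2 the difference of aca-miR-9-5p was -0.70 (adjusted p = 0.311 by limma over families). All 26 tested miR-9 entries had negative differences, but they rested on a few sets of shared reads. In 25 of them large fish lay below small fish without overlap, against 29.6% of all tested entries. Some of these gaps were narrow: aca-miR-9-5p had 28 counts in both L2 and S1. Their 95% counting intervals overlapped (2.43 to 5.28 CPM in L2 and 2.78 to 6.05 CPM in S1). dre-miR-9-4-3p, which differs from dre-miR-9-7-3p by A19T, held 1.53 to 2.87 CPM in large fish and 3.59 to 14.6 CPM in small fish. dre-miR-9-3p, with a T11G change to dre-miR-9-7-3p, held 0 to 1.04 CPM in large fish and 1.08 to 5.03 CPM in small fish.

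miR-137, which in mammals acts in neural progenitors and at synapses, varied more within large fish than between groups. dre-miR-137-3p had 1.90 CPM in L1, 21.3 CPM in L2 and 7.06 CPM in L3, against 15.6 CPM in S1, 15.01 CPM in S2 and 21.9 CPM in S3. L1 was the lowest library and L2 was level with the highest small fish library, so the groups overlapped. By limma the difference was -1.18 (SE 0.71) with an adjusted p of 0.285 over families. fru-miR-137, which differs by A10G, gave nearly the same counts (1.90 to 20.6 CPM in large fish and 14.7 to 21.9 CPM in small fish). The 5p arm was close to absent, with gga-miR-137-5p at no more than 0.460 CPM in any library.

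miR-129-5p followed miR-137 in its high library among large fish. dre-miR-129-5p stood at 1.52 CPM in L1, 14.4 CPM in L2 and 3.07 CPM in L3, against 5.69 CPM in S1, 4.34 CPM in S2 and 10.9 CPM in S3, and the groups overlapped. Its difference of -0.48 (SE 0.71, adjusted p = 0.719 by limma over families) took the opposite sign in 4 of 18 alternatives. dre-miR-129-1-3p had at most 0.522 CPM.

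miR-153-3p, which targets synaptic proteins in mammals, had its highest large fish value in L3, as miR-338-3p did. dre-miR-153c-3p stood at 2.66 CPM in L1, 3.00 CPM in L2 and 8.59 CPM in L3, against 6.13 CPM in S1, 11.3 CPM in S2 and 7.53 CPM in S3. Its groups overlapped through L3 alone, and by limma the difference was -0.80 (SE 0.46, adjusted p = 0.271 over families). Without L3, dre-miR-153c-3p and dre-miR-153b-3p passed by limma over entries, with adjusted p values of 0.0422 and 0.0472. The share of all entries that passed without L3 was not counted. By limma over families without L3, dre-miR-153c-3p did not pass (adjusted p = 0.0620). The same fit gave it adjusted p values of 0.489 without L1, 0.461 without L2, 0.330 without S1, 0.521 without S2 and 0.370 without S3. dre-miR-153b-3p differs from dre-miR-153c-3p by T21G and held nearly the same values. The 5p arm (dre-miR-153b-5p and dre-miR-153c-5p) had counts in S2 and S3 only, at 0.521 and 0.269 CPM.

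miR-138-5p, which limits dendritic spine size in rat neurons, was low, at 4 to 23 counts in a library. cgr-miR-138 had 0.759 CPM in L1, 1.31 CPM in L2 and 1.07 CPM in L3, against 2.54 CPM in S1, 2.00 CPM in S2 and 2.28 CPM in S3. The groups did not overlap, and by limma the difference was -0.68 (SE 0.33, adjusted p = 0.193 over families), which did not pass. The 3p arm held a few counts and no common direction. Its leading entry, gga-miR-138-1-3p, had 0.307 to 0.392 CPM in large fish and 0.260 to 0.403 CPM in small fish, with overlapping groups. dre-miR-138-3p ran the other way from the 5p arm. It had 0.307 to 0.392 CPM in large fish and 0.0868 to 0.299 CPM in small fish. dre-miR-138-2-3p had counts in S2 and S3 only, at 0.174 and 0.269 CPM. These 3p entries were not tested, and none of their values is above the 3-count limit of its library.

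The 3p arms of miR-132 and miR-212 were met mainly in forms whose sequence runs on the opposite strand from the known miRNA. The pairs below show it. In each pair the stretch in capitals of the first entry is the exact reverse complement of the capitals of the second. The entry names are those of common carp (ccr), Nile tilapia (oni) and the cichlid Astatotilapia burtoni (abu).
ccr-miR-132b: ACCATGGCTGTAGACTGTTAcc
abu-miR-132-3p: TAACAGTCTACAGCCATGGTc
oni-miR-132c: AGCCATGACTGTAGACTGTTACt
abu-miR-212-3p: GTAACAGTCTACAGTCATGGCT
The first pair shared 20 bases and the second 22. ccr-miR-132b, the leading miR-132 entry, had 6.45 CPM in L1, 4.96 CPM in L2 and 3.07 CPM in L3, against 8.98 CPM in S1, 10.9 CPM in S2 and 11.02 CPM in S3. An entry with a 5p name, gga-miR-132b-5p, held the same values as ccr-miR-132b. abu-miR-132-3p, the form known in vertebrates as the activity-dependent miR-132, had 1.14 CPM in L1, 0.522 CPM in L2 and 0.921 CPM in L3, against 0.898 CPM in S1, 1.04 CPM in S2 and 0.941 CPM in S3. The opposite-strand form was above it in 6 of 6 libraries, with 360 counts over all libraries against 41. The contrast was wider for miR-212-3p: oni-miR-132c held 149 counts over the 6 libraries, and abu-miR-212-3p and dre-miR-212-3p held 1 count, in S2. How the authors' pipeline treated strand was not tested, and reads of these pairs are uncertain in name.

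Both opposite-strand forms were lower in all large fish libraries than in any small fish library. ccr-miR-132b differed by -0.995 (SE 0.32, 95% interval -1.75 to -0.24, adjusted p = 0.0750 by limma over families) and missed the threshold. When all distinct sets of miR-132 values were summed, known-strand forms included, that sum passed (adjusted p = 0.0470 by limma over families), and no alternative run over families called ccr-miR-132b itself. oni-miR-132c had 2.09 CPM in L1, 0 in L2 and 1.69 CPM in L3, against 6.88 CPM in S1, 3.30 CPM in S2 and 5.78 CPM in S3, a difference of -1.60 (SE 0.48, adjusted p = 0.0658 by limma over entries) that also missed it. The known form abu-miR-132-3p averaged 0.860 ± 0.312 CPM in large fish and 0.960 ± 0.0737 CPM in small fish (SD, n = 3 each), and its groups overlapped. That the strand forms respond unequally was not tested.

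The 5p arms of both miRNAs were present. dre-miR-132-5p had 1.52 CPM in L1, 0.131 CPM in L2 and 1.99 CPM in L3, against 3.44 CPM in S1, 0.868 CPM in S2 and 2.28 CPM in S3. aca-miR-212-5p had 1.33 CPM in L1, 1.70 CPM in L2 and 1.23 CPM in L3, against 1.65 CPM in S1, 1.13 CPM in S2 and 3.90 CPM in S3. The groups overlapped for both. By limma aca-miR-212-5p differed by -0.33 (SE 0.42, adjusted p = 0.663 over families). Their opposite-strand partners were scattered: gga-miR-132b-3p (gga, chicken), a 20-base reverse complement of the miR-132-5p of ipu (channel catfish), had counts in L2, L3 and S2 only, and gga-miR-132c-3p, a 22-base reverse complement of rat miR-212-5p (rno), had 16 counts, all in S2. The known 5p form of miR-132 held 72 counts over all libraries against 50 for gga-miR-132b-3p, and was above it in 3 of 6. That of miR-212 held 81 counts against the 16 of gga-miR-132c-3p. For the miR-9 pair below, the known strand was also the common one. dre-miR-9-4-3p held 298 counts over all libraries, and its 21-base reverse complement, oha-miR-9-3-5p (oha, king cobra), held 2.

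**Figure D3:**
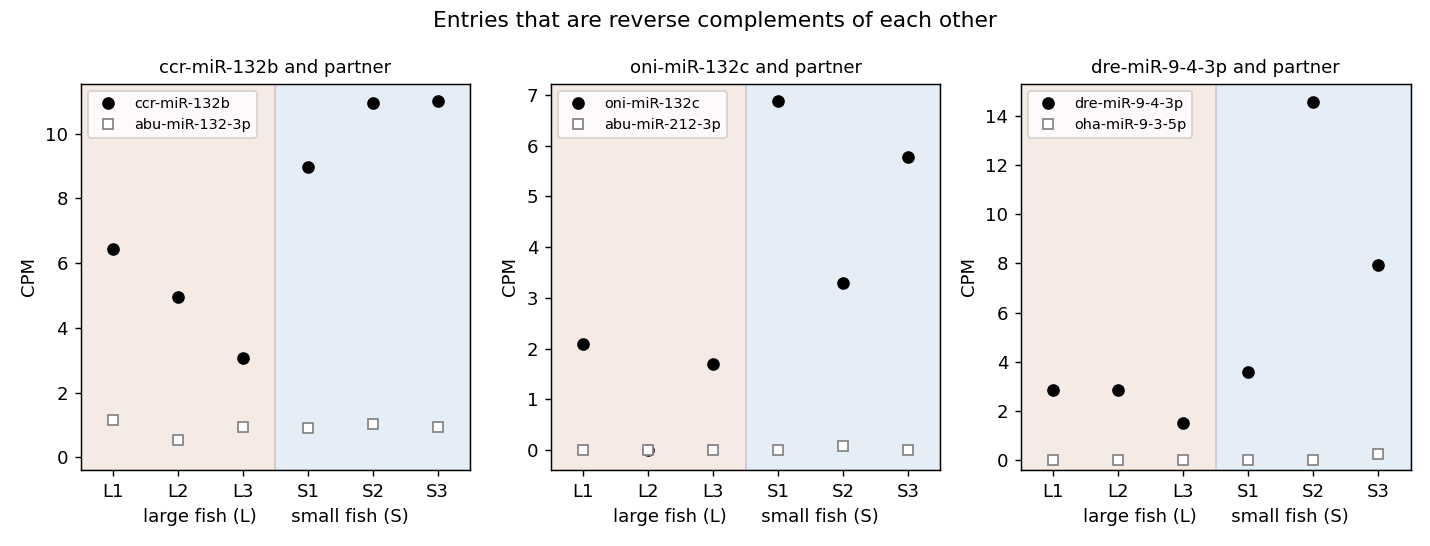
CPM in each library (large fish on the left, small fish on the right of each panel) of 3 entries (filled circles) and of the entries that are their reverse complement (open squares). ccr-miR-132b and oni-miR-132c lie above the known miR-132-3p and miR-212-3p in 6 and 5 of 6 libraries, both entries of the second pair being 0 in L2, and in the miR-9 panel the known form dre-miR-9-4-3p is the higher one.

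miR-124, one of the most abundant miRNAs of the vertebrate brain, was close to the limit of detection in its known form. The entries with its known 3p sequence, such as hsa-miR-124-3p, held 1 count in each of L3, S1 and S3 and none in L1, L2 and S2, 3 counts among the 45099678 of the 6 libraries. The leading miR-124 entry was ccr-miR-124b, whose seed, CAAGGTC, it shared with 3 other miR-124 entries and not with the known form (AAGGCAC). It had 0 counts in L1, L2 and L3, against 88 counts in S1, 6 in S2 and 16 in S3 (13.2, 0.521 and 2.15 CPM). No 5p entry of miR-124 was among the members, so whether ccr-miR-124b runs on the opposite strand from that arm was not tested. A planarian form with the known seed, sme-miR-124e-3p, which differs from hsa-miR-124-3p by G11T, was led by L1 with 48 counts (9.10 CPM) and S2 with 19 counts (1.65 CPM), and held at most 1 count in each other library. No miR-124 entry reached 1 CPM in 3 libraries, so the family entered no test.

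miR-219, the partner of miR-338 in oligodendrocytes, was found in few libraries. dre-miR-219-5p, its main arm in brain, had 4 counts in S2 (0.347 CPM) and 0 in the other 5 libraries. The 3p entry aca-miR-219-1-3p had 36 counts (3.12 CPM), all in S2, and dre-miR-219-3p had 12 counts in L1 (2.28 CPM) and 5 in S2 (0.434 CPM). The 2 oligodendrocyte families thus stood far apart, with miR-338-3p at 215 CPM or more in every library and miR-219-5p at 0 in 5 of 6. Set against the name of the list, the known forms miR-124-3p and miR-219-5p were at or near 0. Other entries of both families had counts in some libraries: sme-miR-124e-3p in 5, ccr-miR-124b in 3, dre-miR-219-3p in 2 and aca-miR-219-1-3p in 1.

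Fewer entries of the 11 families were detected in large fish, as was so of the whole table. There were 123 in L1, 123 in L2 and 143 in L3, against 147 in S1, 185 in S2 and 167 in S3. The means were 130 ± 11.5 entries in large fish and 166 ± 19.0 entries in small fish (SD, n = 3 each). These numbers repeat names with identical values. Counted as distinct sets of values, 44 were above 0 in L1, 44 in L2 and 46 in L3, against 51 in S1, 59 in S2 and 57 in S3. Detection by distinct sets was not counted over the whole table. Over all 2925 known entries, 2151 were above 0 in L1, 1984 in L2 and 2105 in L3, against 2239 in S1, 2432 in S2 and 2416 in S3, so the groups did not overlap there either. L1 was the shallowest library, so the numbers were also computed for its depth by the rarefaction formula, which gave 123 entries in L1, 120 in L2 and 137.9 in L3, against 141 in S1, 156 in S2 and 155 in S3. Groups still did not overlap, by a smaller margin. As distinct sets, the depth of L1 gave 44 in L1, 42.8 in L2 and 45.2 in L3, against 49.7 in S1, 54.1 in S2 and 54.6 in S3. At 1 CPM or more there were 76, 77 and 81 entries in large fish, against 100, 101 and 95 in small fish. No test was run on these numbers, and the whole table was not counted at the depth of L1 or at 1 CPM or more. As shares above 0 at full depth, member entries ran from 58.02% to 67.45% in large fish and 69.34% to 87.26% in small fish. All entries ran from 67.83% to 73.54% in large fish and 76.55% to 83.15% in small fish. Of all members, 99 (46.7%, against 61.6% of all entries) were in all libraries. In large fish libraries only there was 1 (0.472%, against 5.74% of all entries). In small fish libraries only there were 53 (25.0%, against 18.9% of all entries), which held 12 of the 66 sets of values. Many of these were in S2, the deepest library, which alone held 33 entries in 4 sets. Of the 33, 18 held a single count, as did 65 names outside the list, so their equal values need not be shared reads. The share of entries found in S2 alone was not counted over the whole table.

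**Figure D4:**
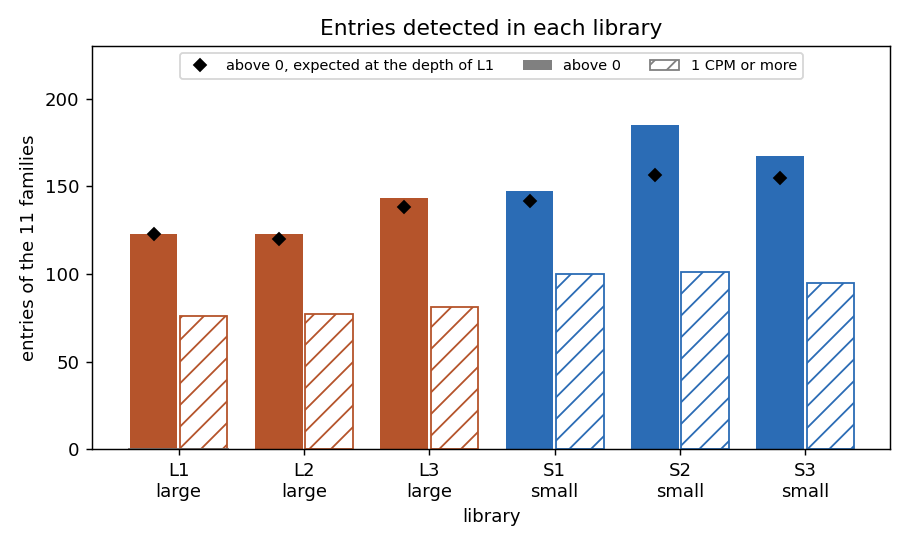
Number of member entries above 0 (filled bars) and at 1 CPM or more (hatched bars) in each library, large fish on the left, with diamonds for the number above 0 expected at the depth of L1, the shallowest library. The large fish bars reach 123 to 143 entries and the small fish bars 147 to 185, and the hatched bars reach 76 to 81 in large fish and 95 to 101 in small fish.

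Read as a list, most tested members leaned lower in large fish but few passed. A level of 1 CPM or more in 3 libraries was reached by 92 member entries, which were tested: 0 were called higher and 6 lower in large fish, against 2.82% of all 1807 tested entries called higher, 14.2% called lower and 17% in either direction. By the quasi-likelihood test of edgeR on the recovered counts, 0 of the 92 passed. How many of all entries passed that test was not counted. By limma, 22 of the 92 (23.9%) had an unadjusted p under 0.05, against 32.5% of all tested entries. Differences were positive for 7 entries, all miR-128, and negative for 85, with a median of -0.79, beside a median of -0.26 over all entries. After quantile normalization, which moved the median of all entries to 0.09, 23 of the 92 were positive and 69 negative, and their median was -0.37. Of the 92, entries whose groups did not overlap numbered 5 higher (all miR-128-3p) and 47 lower in large fish. Over all entries tested the shares were 10.5% and 29.6%. These counts repeat shared reads: 25 of the 47 were miR-9 names, and the 92 held 36 distinct sets of values. Counted as families, 9 of the 11 were tested and 1 (miR-338) was called lower, against 20.8% of all 149 families called in either direction and 16.1% called lower. Without overlap were 1 family higher (miR-128) and 4 lower (miR-9, miR-132, miR-138 and miR-338) of the 9, against 16.1% and 24.8% of all families. Of these, miR-132 was counted by ccr-miR-132b, the opposite-strand form. In the known forms abu-miR-132-3p and dre-miR-132-5p the groups overlapped. The filter on low values kept miR-124 and miR-219 out, so these counts do not speak for all 11 families.

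**Figure D5:**
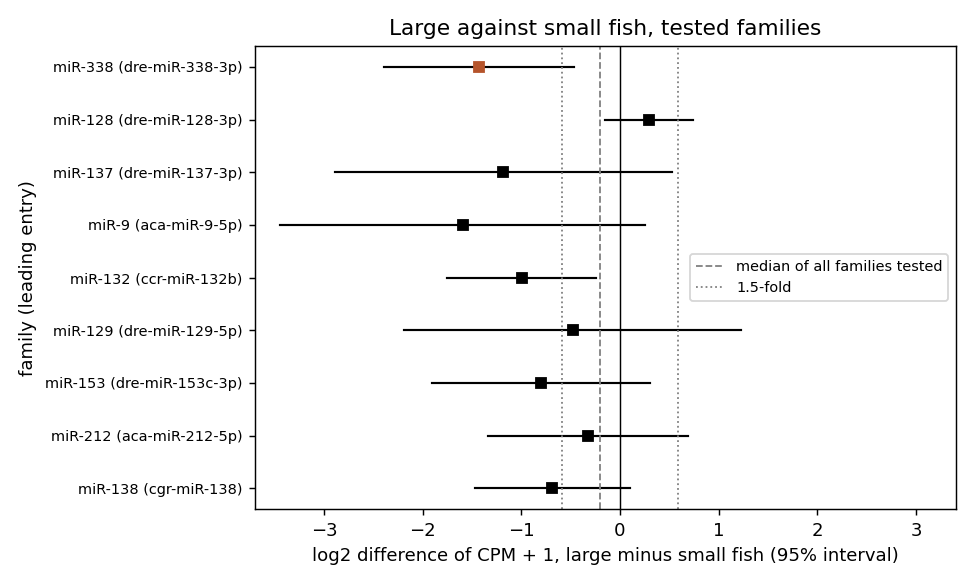
Difference on the log2(CPM + 1) scale, large minus small fish, of the leading entry of the 9 tested families (squares) with 95% intervals (lines), with the families ordered by mean level. Dotted lines mark a fold of 1.5 in either direction and the dashed line the median of all 149 families (-0.21). The interval of miR-338, -2.40 to -0.47, and that of miR-132, -1.75 to -0.24, leave out 0, and those of the other 7 families include it. The miR-132 entry is ccr-miR-132b, an opposite-strand form.

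Some other lists of miRNAs separated the groups and others did not. The leading entries of the skeletal muscle families miR-1, miR-133 and miR-206 were summed. They stood at 2842 CPM in L1, 2374 CPM in L2 and 6609 CPM in L3, against 10585 CPM in S1, 17496 CPM in S2 and 16348 CPM in S3. L3 was the highest large fish library for muscle miRNAs and for miR-338-3p. Among small fish the order did not match: S1 was the lowest for muscle miRNAs and the highest for miR-338-3p (1136 CPM). The leukocyte list (miR-223, miR-150 and miR-142) ran the other way, with 9374 to 11700 CPM in large fish and 3283 to 4506 CPM in small fish. Groups overlapped for the erythroid miR-144 and miR-451, at 3118 to 3275 CPM in large fish and 1411 to 3344 CPM in small fish. They also overlapped for miR-122 of liver (87.3 to 257 CPM in large and 190 to 254 CPM in small fish). The same held for miR-126 of endothelium (7395 to 14401 CPM in large and 8771 to 13548 CPM in small fish). The part of any of these lists in the differences above was not tested. Fewer vesicles from a tissue cannot be told apart from less miRNA in each vesicle. Of a second list of 11 families of the nervous system and senses, 6 were tested and 0 passed by limma in either direction. An unadjusted limma p under 0.05 was met by 0 of the 6. Over all 149 tested families, 20.8% passed and 50 had such a p. The median difference of the 6 families was -0.16. miR-125, the most abundant, stood at 3590 to 5228 CPM in large fish and 3511 to 5235 CPM in small fish. In this second list 89 entries were tested, 78 with negative and 11 with positive differences, beside 1229 and 578 over all entries. Of the 89, 0 passed and 3 had an unadjusted limma p under 0.05, against 17% and 32.5% of all tested entries.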

How the data were processed

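The deposited table holds CPM values that the authors computed from miRNA counts. Per the labels and methods, exosomes were isolated by ultracentrifugation, the kit used for the libraries, with 3 ng of RNA as input, adds molecular identifiers, and reads were aligned with Bowtie and named after miRBase entries. The treatment of strand and of reads that fit several entries is not given in the sources used here. Dividing each column by its smallest step gave whole counts for 100% of values (tolerance 0.02), with totals of 5272418 to 11524535.

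Members and lists were chosen with earlier results of these data known. Differences were tested with limma (3.58.1, trend) on log2(CPM + 1) on the 1807 entries that reached 1 CPM in 3 libraries or more, and over 149 families, each by the entry of highest mean. A call needed a fold of 1.5 or more and an adjusted p (Benjamini-Hochberg) no higher than 0.05. Named entries were the leading entry of each arm, some of those that passed, and all zebrafish entries. Others were chosen after their values were seen. Intervals and limits use exact binomial counts at 95% and 3 counts. edgeR (4.0.16) and DESeq2 (1.42.0) ran on the recovered counts as alternatives, with other pseudocounts, filters, scalings and left-out libraries. The fits were also run on simulated data with independent entries. Real entries share reads, so that run checked the code and not the calls given here. Pools are the replicates, so p-values measure the spread between pools.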

Additional observations from a re-analysis of the deposited data

How the results depend on the processing

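Counts of calls moved with most settings. The 6 member entries called became 0 with a pseudocount of 0.1, without a filter on low values, with TMM scaling, quantile normalization or limma without trend, and with edgeR's quasi-likelihood or exact test, and 3 with identical entries counted once. Leaving out each library gave 0 to 8 entries: the 3 without S1 were forms of dre-miR-9-4-3p and not miR-338. DESeq2 gave 5, all miR-128-3p names with identical values and none of them among the 6. Over all tested entries, TMM scaling called 95 higher and 165 lower in large fish, against 51 and 257 without it. Quantile normalization called 95 lower and a larger number higher, so the prevailing direction of calls turned. Other entries thus still passed under TMM scaling and quantile normalization, while no member did. For the other settings, calls over all entries are not given. The 1 family called became 0 with a pseudocount of 0.1, without a filter, with edgeR's quasi-likelihood test, limma without trend, quantile normalization, TMM scaling or the zebrafish entry, and 0 to 1 with a library left out. The difference in detected entries, large minus small, was -36.7 above 0, -20.7 at 1 CPM or more and -23.9 at the depth of L1. Library numbers did not pair the samples (correlations of -0.05, -0.06 and 0.02 for numbers 1, 2 and 3). With a replicate block, 1 entry (oni-miR-132c) and 0 families were called. The cause of these changes was not tested. There were 3 pools a group, and 9 of the 11 families were at or below 34.2 CPM in every library.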
